A study of Ovis aries with 12 samples.

Results

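The proteasome genes of sheep muscle were followed here across 4 diets that differed in succinate, an intermediate of the TCA cycle. Members were all rows of the deposited table whose gene symbol starts with PSMA to PSMG and a number, and 49 of 21257 rows matched. A low-count filter kept 47 of them among 13319 genes tested. The rows cover both rings of the core particle, the ATPase and non-ATPase subunits of the regulatory particle, the inducible catalytic subunits, the activators, the inhibitor and the assembly chaperones. PSME3IP1 matched the rule by its name only: it encodes a protein that binds an activator subunit and is not itself a subunit. The tissue was the longissimus dorsi, the long back muscle, of Tan sheep aged 5 months. The control diet was a basal feed without the supplement. SUC1 was the basal feed plus 0.5% succinate, SUC2 plus 1% and SUC3 plus 2%. All 36 animals, 9 per diet, went through a 10-day adaptation and a 60-day trial, and the table holds 3 libraries per diet. The labels do not say whether a library was made from 1 sheep or several, and p-values then cover only the variation among the libraries at hand, some of which may be technical.

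The proteasome is the barrel-shaped protease that degrades proteins tagged with ubiquitin. Its core particle is a stack of rings built from alpha subunits, which form the gate, and beta subunits, among which PSMB5, PSMB6 and PSMB7 carry the active sites. A regulatory particle of ATPases (PSMC genes) and non-ATPases (PSMD genes) caps the core, recognises ubiquitin, unfolds the substrate and feeds it in. Interferon induces, and immune cells hold, the catalytic subunits PSMB8, PSMB9 and PSMB10, which take the places of PSMB5, PSMB6 and PSMB7 and form the immunoproteasome. In skeletal muscle the ubiquitin-proteasome route degrades myofibrillar proteins and is best known for its part in muscle wasting.

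Library totals were 15742428 to 18564057 counts, and 15137 to 15617 genes had a count in each. The proteasome genes together took 0.274% of the counts in SUC3 replicate 1, the lowest share, and 0.487% in SUC2 replicate 2, the highest. Muscle markers were abundant: 11 of 12 skeletal muscle markers were tested, and ACTA1, the skeletal alpha actin, averaged 30252 FPKM (reads per kilobase of gene, scaled to the library total). The first principal component of log2 CPM held 22.0% of the variance. On it SUC2 replicate 3 was highest at 41.9, followed by SUC3 replicate 2 at 16.9. The control libraries were lowest, at -20.9, -35.6 and -24.0. The second component held 17.5% of the variance. On it SUC2 replicate 2 lay at 42.6 and SUC3 replicate 1 at -41.8, apart from the other 10 libraries. Main results that rest on SUC2 replicate 2 or SUC3 replicate 1 are also given without them below, with SUC2 replicate 3 kept.

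The rows not tested were the subunits of other tissues. PSMB11, the beta subunit of the thymus proteasome, had 0 counts in every library, which allows up to 3 counts or 0.162 to 0.191 CPM per library (counting error only). PSMA8, the alpha subunit known from the testis in mice, had 1 to 7 counts per library. PSMB11 lies next to PSMB5 on chromosome 7, with 4741 bases between them in the coordinates of the table, and PSMB5 averaged 61.6 FPKM.

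Among the genes tested, set against one another per length of gene, the medians of the standard roles lay above all activators and chaperones, although single standard subunits such as PSMD14 and PSMC4 did not. PSMD4, a ubiquitin receptor of the regulatory particle, was the highest at a mean of 160 FPKM over the 12 libraries (126 to 216). PSMC2, an ATPase, followed at 119 FPKM, and PSMB4 and PSMA6 of the core rings stood at 105 and 104 FPKM. The 7 alpha subunits ran from 35.2 FPKM (PSMA4) to 104 FPKM (PSMA6), and the 7 beta subunits from 43.6 FPKM (PSMB2) to 105 FPKM (PSMB4). The median was 69.8 FPKM in the alpha ring, 76.4 FPKM in the beta ring, 68.9 FPKM in the ATPase ring and 54.6 FPKM among the non-ATPases. In an assembled particle these subunits stand in fixed ratios, yet the mRNA levels of PSMD4 and PSMD14, the deubiquitinating subunit at 23.4 FPKM, differed 6.83-fold. The inducible subunits were far lower, with means of 7.45 FPKM for PSMB8, 6.39 FPKM for PSMB10 and 6.17 FPKM for PSMB9. Assembly chaperones lay between 4.96 FPKM (PSMD10) and 25.5 FPKM (PSMG2), and activators between 17.0 FPKM (PSME2) and 29.9 FPKM (PSME4). PSME3IP1 was the lowest gene tested at 2.40 FPKM (1.89 to 3.43).

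**Figure D1:**
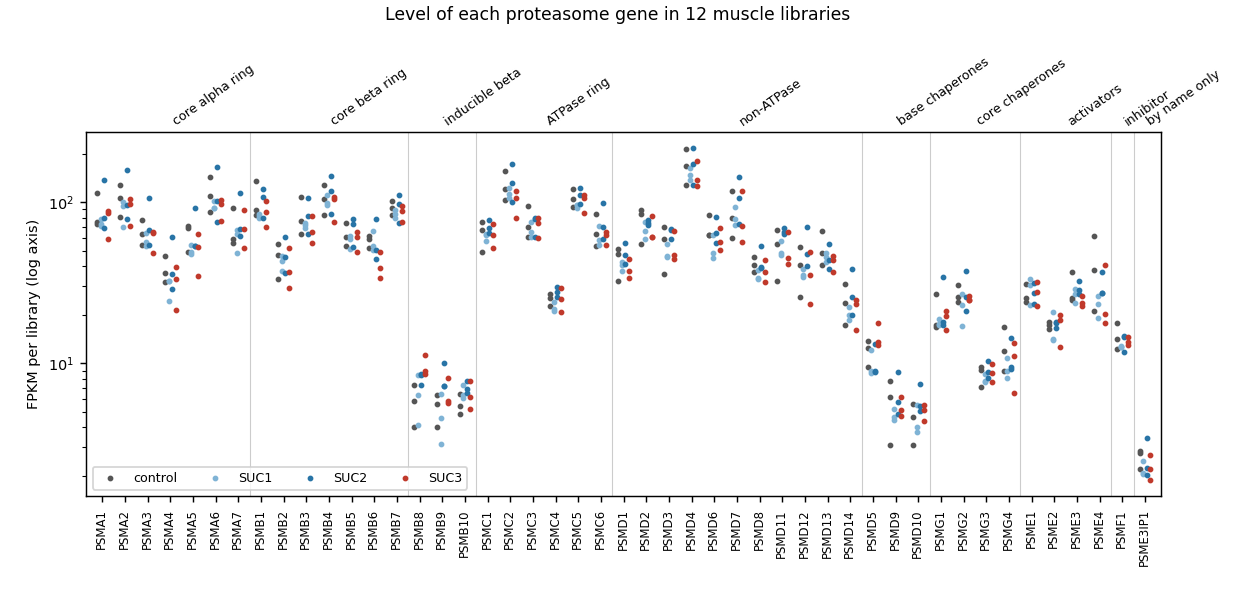
FPKM of each of the 47 tested proteasome genes (log axis) in each of 12 libraries, 1 point per library, coloured by diet from control to SUC3 and grouped by role. The standard subunits sit between 16.03 and 216 FPKM, while PSMB8, PSMB9 and PSMB10 sit between 3.15 and 11.2 FPKM.

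The spread between libraries of the same diet was unequal among the roles. The within-diet SD of log2 CPM had a median of 0.33 in the alpha ring, 0.25 in the beta ring, 0.25 among the non-ATPases and 0.18 in the ATPase ring, against 0.31 over all genes tested. PSME3 (activator) and PSMC5 (ATPase) had the smallest SD, 0.14 each, and PSME4, another activator, the largest, 0.46. From the lowest to the highest library PSMC5 and the inhibitor gene PSMF1 differed 1.42-fold in CPM (counts scaled to a common total), and PSME4 differed 3.38-fold.

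Much of that spread was shared by the standard subunits, library by library. Of the 31 standard subunits, 30 had their lowest CPM in SUC3 replicate 1, where 13.5% of all genes tested had theirs, and 24 had their highest in SUC2 replicate 2, where 14.9% of all genes did. Each gene was set against its own mean over the 12 libraries. The number of standard subunits above it was 14, 30 and 23 in control replicates 1 to 3, 12, 12 and 11 in SUC1, 23, 31 and 6 in SUC2, and 0, 25 and 13 in SUC3. The median deviation on the log2 scale was 0.40 in SUC2 replicate 2 and -0.22 in SUC2 replicate 3. It was -0.48 in SUC3 replicate 1 and 0.08 in SUC3 replicate 2. The libraries of SUC2, and those of SUC3, thus lay on both sides of the mean. Of the 4 standard roles the alpha ring had the widest swing, 0.64 in SUC2 replicate 2 and -0.53 in SUC3 replicate 1, and the ATPase ring had the narrowest, 0.17 and -0.36 in the same libraries. These libraries are the ones apart on the second component, and what sets them apart was not tested. In bulk tissue, fewer cells of a type and less RNA per cell cannot be told apart.

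**Figure D2:**
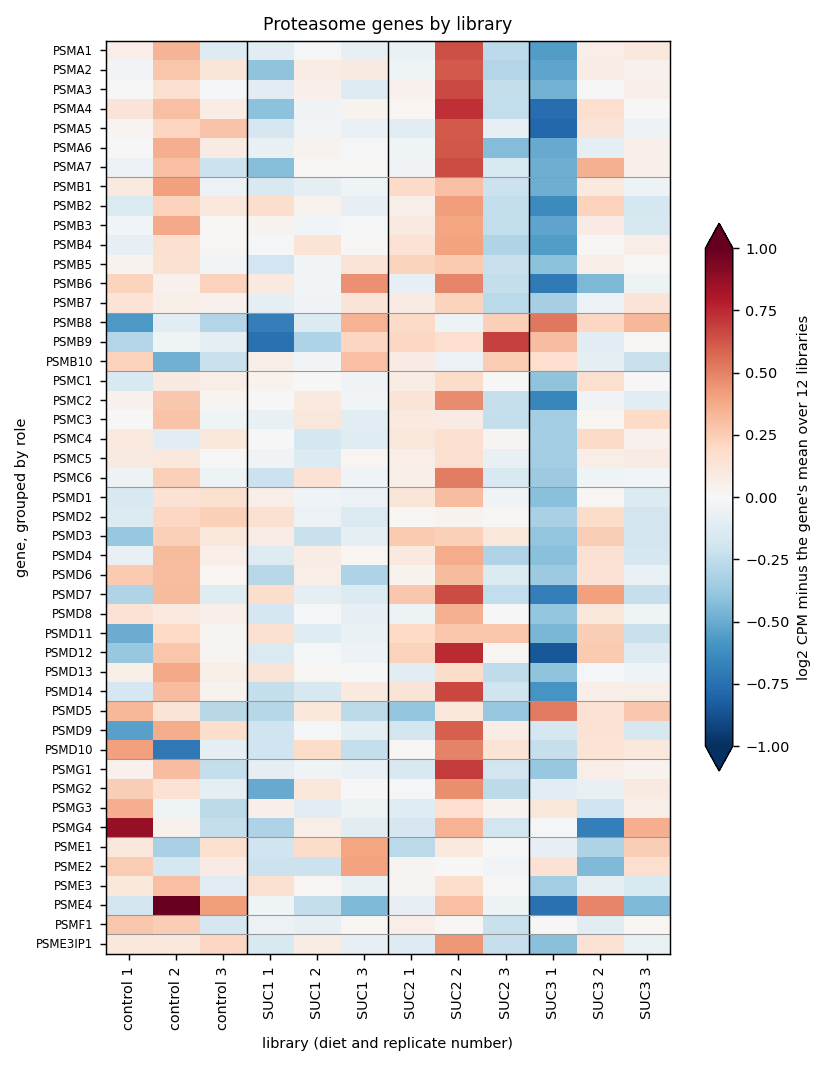
Log2 CPM of each tested proteasome gene minus its mean over 12 libraries (colour scale in log2 units), with libraries in columns by diet and genes in rows by role. SUC3 replicate 1 is blue and SUC2 replicate 2 red over nearly all standard subunits, while PSMB8 to PSMB10 do not follow them.

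Between diets, no proteasome gene passed the test. In SUC1 against control, 0 of 47 had an edgeR adjusted p under 0.05 (0% of all genes tested passed), and the smallest adjusted p was 0.637, for PSME4. In SUC2 against control, 0 of 47 passed, beside 1.43% of all genes, and the smallest was 0.337, for PSMB9. In SUC3 against control, 0 of 47 passed, beside 0.00751% of all genes, and the smallest was 0.292, for PSMB8. Any difference among the 4 diets was called for 0 of 47, beside 0.0225% of all genes, and a slope over succinate percent for 0 of 47, beside 0.00751%. DESeq2 also called 0 of 47 in each of these, where it called 0.537%, 6.32%, 1.81%, 6% and 0.91% of all genes in the order given. At an unadjusted p under 0.05 stood 1 member in SUC1, 0 in SUC2 and 2 in SUC3, against 7.61%, 17.9% and 12.4% of all genes. In the joint test 0 members did (14.7% of genes), and for the slope 2 members, PSMB8 and PSMB6 (10.8%). The precision was moderate: the median SE of a log2 fold change was 0.21, and the 95% interval lay within a 2-fold difference in both directions for 45 of 47 genes in SUC1, 43 in SUC2 and 43 in SUC3. It lay within 1.5-fold for 23, 29 and 14 of them. PSME4 and PSMG4 had intervals that reached beyond 2-fold in all comparisons with control, PSMB8 and PSMB9 in SUC2, and PSMB6 and PSMB8 in SUC3.

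The signs of the estimates differed by diet. In SUC1 the log2 fold change was above 0 for 6 and below 0 for 41 of 47 genes, with a median of -0.12 against -0.01 over all genes. In SUC3 it was above 0 for 5 and below 0 for 42, with a median of -0.17 against -0.01, and without SUC3 replicate 1 these were 14 genes above 0 and a median of -0.06. In SUC2 it was above 0 for 26 and below 0 for 21, with a median of 0.02 against 0.00. Without SUC2 replicate 2 only 10 were above 0 (median -0.13), and without SUC2 replicate 3 there were 36 (median 0.14). Scaling by library totals alone gave 3, 38 and 8 genes above 0 in SUC1, SUC2 and SUC3. Without control replicate 2 the numbers were 17, 34 and 9. The comparisons share the control libraries, so their signs are not independent, and subunits that move together in a library are not independent either. Over all genes tested, 48.3%, 49.8% and 49.0% of estimates were above 0 in SUC1, SUC2 and SUC3. No test was made on these counts of signs or on the medians.

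**Figure D3:**
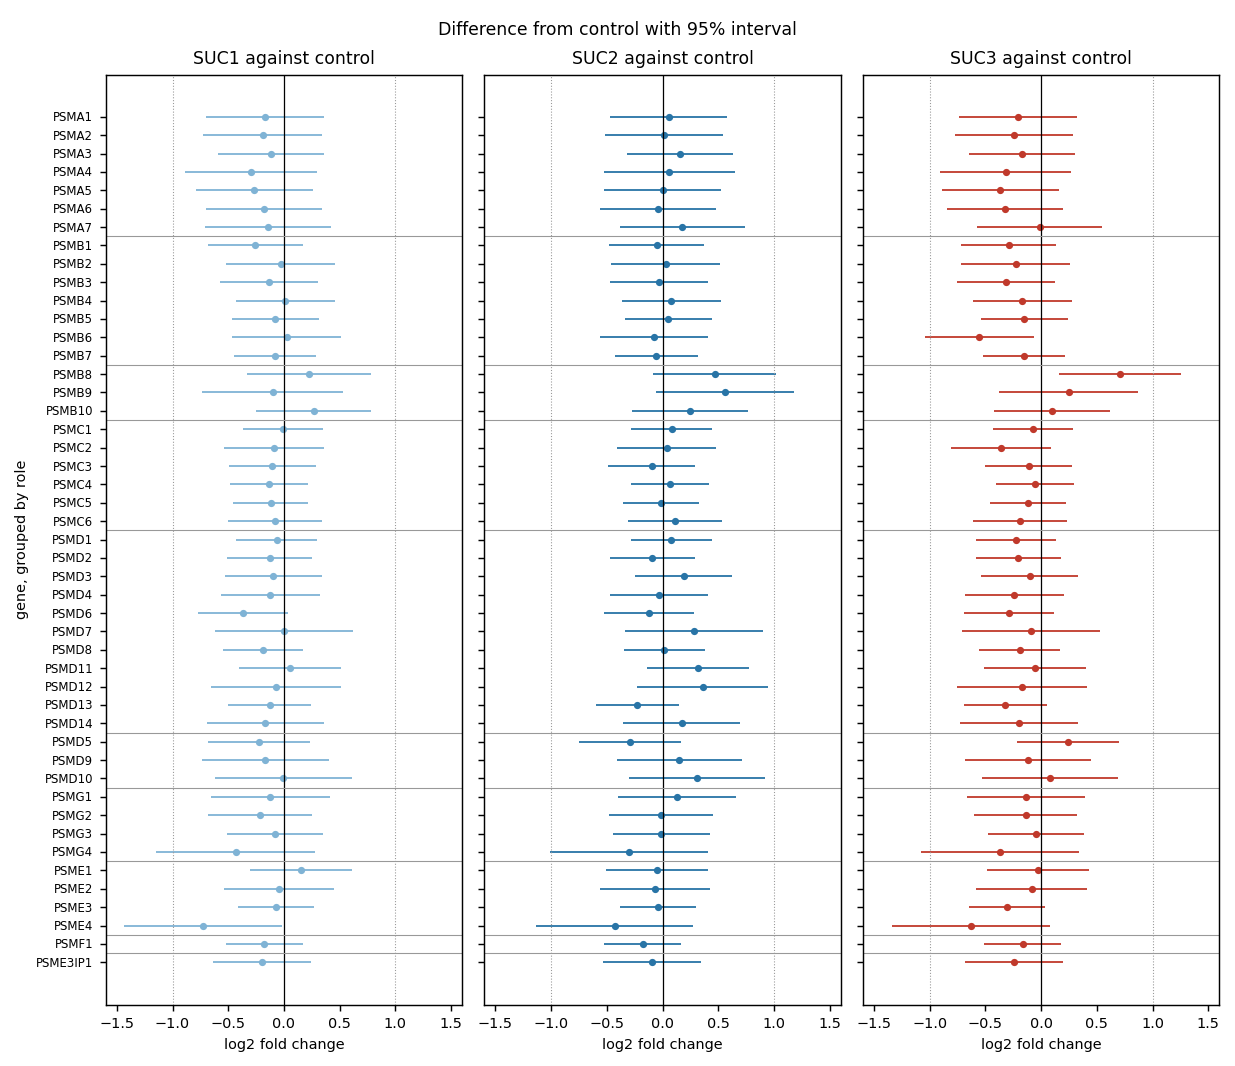
Log2 fold change of each tested proteasome gene against control in SUC1, SUC2 and SUC3 (points) with its 95% interval from the edgeR fit (bars), grouped by role. Nearly all intervals span 0, and those of PSMB8 and PSMB6 in SUC3 and of PSME4 in SUC1 lie off 0 without passing adjustment.

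In the alpha ring, whose subunits form the gate of the core, all 7 tested genes had estimates below 0 in SUC1 (-0.30 to -0.11) and in SUC3 (-0.37 to -0.01), and 6 of 7 were above 0 in SUC2 (-0.04 to 0.18). PSMA5 had the smallest joint p of the ring. It was at 55.8, 63.8 and 66.8 CPM in control, 48.7, 53.9 and 52.4 CPM in SUC1, 50.9, 84.2 and 51.6 CPM in SUC2, and 31.6, 59.9 and 52.9 CPM in SUC3. Every SUC1 library lay below every control library, SUC2 replicate 2 stood above all others and SUC3 replicate 1 below all others. The log2 fold change was -0.27 ± 0.24 (SE) in SUC1 and -0.37 ± 0.24 in SUC3 (edgeR adjusted p = 0.883 and 0.562), and in SUC3 it was -0.14 without SUC3 replicate 1. PSMA4, PSMA5, the non-ATPase PSMD8 and PSME3IP1 were the 4 members with every SUC1 library below every control library, as were 6.81% of all genes, and 0 members had them all above (7.4% of genes).

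In the beta ring the standard subunits were close to control in SUC1 (-0.26 to 0.02) and SUC2 (-0.08 to 0.08), and all 7 estimates were below 0 in SUC3 (-0.56 to -0.15). PSMB5, which carries the chymotrypsin-like activity, was at 63.7, 69.3 and 60.9 CPM in control, 54.6, 61.0 and 68.2 CPM in SUC1, 72.9, 74.8 and 53.4 CPM in SUC2, and 46.6, 64.9 and 63.2 CPM in SUC3. PSMB7, which carries the trypsin-like activity, was at 94.96, 90.3 and 89.0 CPM in control, 80.7, 84.3 and 94.6 CPM in SUC1, 91.4, 100.8 and 71.6 CPM in SUC2, and 68.8, 83.0 and 94.9 CPM in SUC3. For both genes the diets overlapped, and the SUC3 estimates were -0.15 ± 0.18 (95% interval -0.54 to 0.24) and -0.15 ± 0.17 (-0.52 to 0.22).

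PSMB6, the subunit with caspase-like activity, had the smallest p of the ring in SUC3. It was at 50.1, 44.1 and 50.2 CPM in control, 45.8, 41.9 and 59.0 CPM in SUC1, 40.4, 60.2 and 36.2 CPM in SUC2, and 26.02, 31.1 and 41.2 CPM in SUC3. Every SUC3 library lay below every control library, as was also seen for PSMC2 and PSMD13 among the members (3 of 47, against 8.88% of all genes). The log2 fold change in SUC3 was -0.56 ± 0.23 (95% interval -1.04 to -0.07), with an unadjusted p of 0.0289 that did not hold after edgeR adjustment (adjusted p = 0.346). It ranged from -0.75 to -0.41 over 22 alternative settings, and was -0.41 without SUC3 replicate 1. PSMB6 lies on chromosome 11 from 26443660 to 26445879 on the minus strand, and 2 further rows on chromosome 10 are described as PSMB6-like. Their gene span equals their transcript length, 813 and 809 bases, and they had 67 to 206 and 31 to 72 counts per library. Reads may have been split between these rows and PSMB6, so its value is uncertain. With all 3 rows added together the log2 fold change was -0.45 ± 0.22 (edgeR adjusted p = 0.420).

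The inducible subunits had estimates above 0 in SUC2 and SUC3, where the standard beta subunits were mixed in SUC2 (3 above, 4 below) and all below 0 in SUC3. In SUC1 both sets were mixed. PSMB8, the immunoproteasome counterpart of PSMB5, was at 6.00, 8.44 and 7.40 CPM in control, 5.53, 8.30 and 11.8 CPM in SUC1, 10.5, 8.81 and 10.9 CPM in SUC2, and 13.4, 10.6 and 11.7 CPM in SUC3. All SUC2 and all SUC3 libraries lay above all control libraries, while SUC1 spanned the range of control. The log2 fold change was 0.22 ± 0.26 in SUC1, 0.47 ± 0.26 in SUC2 and 0.71 ± 0.26 in SUC3. For SUC3 the 95% interval ran from 0.16 to 1.26 and the unadjusted p was 0.0158, and it did not pass after adjustment (edgeR adjusted p = 0.292; DESeq2 adjusted p = 0.177). Across 22 alternative settings the SUC3 estimate stayed between 0.59 and 0.83, with an adjusted p between 0.177 and 0.548. The slope was 0.35 ± 0.12 per percent of succinate (edgeR adjusted p = 0.291), the smallest edgeR adjusted p of any member in any comparison. These values rest on 87 to 251 counts per library.

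PSMB9, the counterpart of PSMB6, was at 3.72, 4.52 and 4.36 CPM in control, 2.58, 3.69 and 5.51 CPM in SUC1, 5.49, 5.32 and 7.83 CPM in SUC2, and 5.93, 4.31 and 4.73 CPM in SUC3. Only SUC2 lay above control in every library, with a log2 fold change of 0.56 ± 0.29 (edgeR adjusted p = 0.337) and 43 to 127 counts per library. In SUC1 it was -0.10 ± 0.29 and in SUC3 0.25 ± 0.29. In SUC2 against SUC1 the log2 fold change of PSMB9 was 0.66 ± 0.29, with overlapping libraries (edgeR adjusted p = 0.558). PSMB10, the counterpart of PSMB7, was at 7.17, 4.19 and 5.10 CPM in control, 6.31, 5.90 and 7.57 CPM in SUC1, 6.43, 5.79 and 7.28 CPM in SUC2, and 6.84, 5.66 and 5.09 CPM in SUC3. All succinate diets overlapped control, with log2 fold changes of 0.27, 0.25 and 0.10 (SE 0.24 each). In SUC2 the members with every library above control were PSMB8, PSMB9 and the non-ATPase PSMD11, 3 of 47 against 11.5% of all genes, and 0 lay below throughout (10.6% of genes). In SUC3, PSMB8 was the 1 member above throughout, against 9.15% of all genes. PSMB8 and PSMB9 are neighbours on chromosome 20, from 7324795 to 7328859 on the minus strand and from 7338672 to 7345197 on the plus strand, 9812 bases apart, while PSMB10 lies on chromosome 14.

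**Figure D4:**
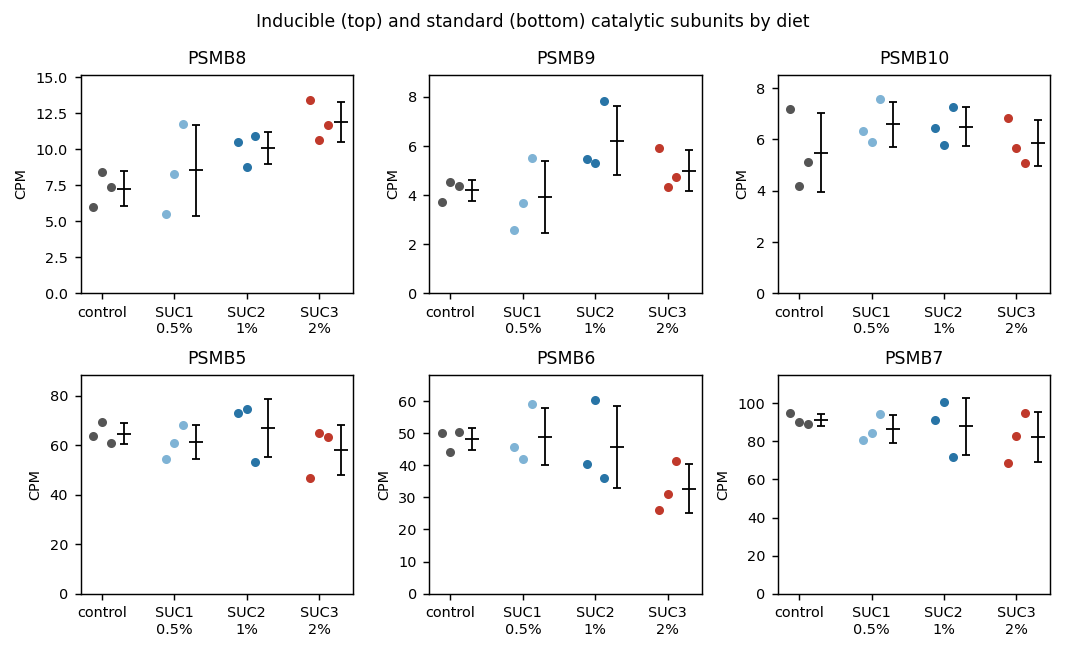
CPM of the inducible catalytic genes PSMB8, PSMB9 and PSMB10 (upper row) and of the standard genes PSMB5, PSMB6 and PSMB7 (lower row) in each library of the 4 diets from control to SUC3, with the mean and SD of 3 libraries beside the points. PSMB8 in SUC2 and SUC3 lies above the 8.44 CPM of the highest control library, and PSMB6 in SUC3 lies below the 44.1 CPM of the lowest.

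A ratio of 2 genes within a library does not change with the scaling of that library, and on this measure the inducible and standard genes were set against each other. The inducible genes made up 7.14%, 7.25% and 7.29% of the summed FPKM of the 6 catalytic genes in control, 6.90%, 8.10% and 9.30% in SUC1, 9.28%, 7.32% and 13.3% in SUC2, and 14.6%, 9.58% and 8.91% in SUC3. The control libraries lay within a narrow band on this summed share, but not on the single pairs below. Among them replicate 1 had the lowest PSMB8 over PSMB5 and PSMB9 over PSMB6 and the highest PSMB10 over PSMB7. Every SUC2 and SUC3 library lay above the control band, SUC2 replicate 2 only just, at 7.32% against 7.29%. The spread was wide, with means of 11.0% ± 3.09 in SUC3 and 7.23% ± 0.08 in control (SD, n = 3). Without SUC3 replicate 1 the SUC3 mean was 9.24%, and without SUC2 replicate 2 the SUC2 libraries were at 9.28% and 13.3%. The 13.3% belongs to SUC2 replicate 3, the highest library on the first component. The highest values were in SUC3 replicate 1 and SUC2 replicate 3, the libraries in which the standard subunits were lowest, and SUC2 replicate 2, where they were highest, was next to the control values. By single pairs, PSMB8 over PSMB5 ranged between 0.0754 and 0.0974 in control, between 0.0810 and 0.138 in SUC1, between 0.0942 and 0.163 in SUC2, and between 0.131 and 0.230 in SUC3. PSMB9 over PSMB6 ranged between 0.0775 and 0.107 in control, between 0.0587 and 0.0973 in SUC1, between 0.0920 and 0.225 in SUC2, and between 0.120 and 0.237 in SUC3. For both pairs SUC3 lay above control in every library, while SUC1 and SUC2 overlapped control, SUC2 through replicate 2. PSMB9 itself overlapped control in SUC3, so the separation of its ratio also rests on PSMB6. The PSMB6 value is uncertain, because reads may have been split with the PSMB6-like rows, and the ratio was not recomputed with those rows added. PSMB10 over PSMB7 ranged between 0.0475 and 0.0774 in control, between 0.0717 and 0.0819 in SUC1, between 0.0589 and 0.104 in SUC2, and between 0.0549 and 0.102 in SUC3, so every succinate diet overlapped control. These shares and ratios are a description of 3 libraries per diet and no test was made on them. How often ratios of other genes lie apart between diets was not computed.

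**Figure D5:**
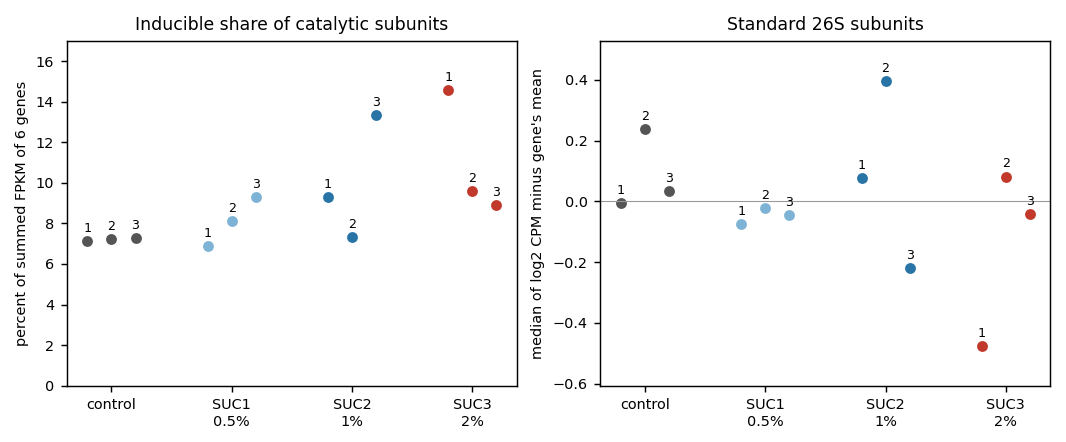
Left, the share of the inducible genes in the summed FPKM of the 6 catalytic genes (percent); right, the median over 31 standard subunits of log2 CPM minus each gene's mean. Each point is 1 library, numbered by replicate, for the 4 diets from control to SUC3; control lies between 7.14% and 7.29% on the left, and SUC3 replicate 1 has both the highest share, 14.6%, and the lowest median, -0.48.

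Since immune cells express the inducible subunits strongly, their markers were set beside these values. Of 18 markers listed, 14 were tested and 0 called in each comparison with control. The summed level of the 17 listed markers that had a row, tested or not, was 30.8 to 43.0 CPM in SUC1. It was 48.6 to 68.0 CPM in SUC2 and 27.7 to 28.9 CPM in SUC3, against 22.8 to 34.9 CPM in control. In SUC2 all 14 estimates were above 0 with a median of 1.08, the diet in which both PSMB8 and PSMB9 lay above control. Within SUC2 the order of the libraries differed: replicate 2 had the highest marker sum, 68.0 CPM, and the lowest PSMB8 and PSMB9, while replicate 3 had the lowest sum, 48.6 CPM, and the highest PSMB8 and PSMB9. The part of immune cells in these values was not tested. In SUC3 the sum lay inside the control range, with 6 of 14 estimates above 0 and a median of -0.10, while the PSMB8 estimate was 0.71. Levels differed within the list: the macrophage markers MRC1 and CD14 averaged 7.10 and 6.15 CPM, the leukocyte marker PTPRC 5.91 CPM, the T-cell markers CD3E and CD8A 1.23 and 0.448 CPM, and the B-cell markers CD79A and MS4A1 0.241 and 0.0494 CPM. In SUC2 against control MRC1 was at 1.38 ± 0.33 and CD14 at 1.30 ± 0.34 (edgeR adjusted p = 0.0588 and 0.0718). CD8A was at 2.47 ± 0.97 in SUC2 and 1.52 ± 1.01 in SUC3 (edgeR adjusted p = 0.201 and 0.564). These estimates rest on very few counts, as CD8A averaged 0.131 CPM in control and had 0 counts in 1 library. Markers of endothelium, fibroblasts, adipocytes, Schwann cells and smooth muscle (15 tested, 0 called) summed to 1556 to 2203 CPM in SUC1, 1193 to 1764 CPM in SUC2 and 1649 to 1991 CPM in SUC3, against 972 to 1332 CPM in control. Of the 15 estimates, 12, 13 and 14 were above 0 in SUC1, SUC2 and SUC3, with medians of 0.55, 0.39 and 0.63. Estimates above 0 thus prevailed in every succinate diet, including SUC1, where PSMB8 spanned the range of control. Of the 11 tested muscle markers (0 called), 4, 2 and 3 estimates were above 0 in SUC1, SUC2 and SUC3, with medians of -0.01, -0.21 and -0.08. They summed to 188121 to 221230 CPM in SUC1, 165570 to 172155 CPM in SUC2 and 179180 to 211388 CPM in SUC3. In control they summed to 171761 to 259530 CPM. The part of these cell markers, muscle or other, in the PSMB8 values was not tested. Of 12 antigen-processing genes, which supply peptides to MHC class I, 0 were called. Their median log2 fold changes against control in SUC1, SUC2 and SUC3 were 0.11, 0.34 and 0.30, with 8, 10 and 11 of 12 above 0. IRF1, an interferon-induced transcription factor, was at 0.63 ± 0.29 in SUC3 (edgeR adjusted p = 0.400). IRF8, a factor of immune cells, was at 1.87 ± 0.75 (adjusted p = 0.338), and PDIA3, a chaperone of peptide loading, at 0.24 ± 0.15 (adjusted p = 0.526).

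The 6 ATPases, which unfold the substrate, varied least between libraries among the 4 standard roles. Against control their estimates ran from -0.13 to -0.01 in SUC1, from -0.10 to 0.11 in SUC2 and from -0.36 to -0.06 in SUC3. PSMC2 had the smallest joint p. It was at 177, 208 and 176 CPM in control, 173, 185 and 169 CPM in SUC1, 189, 239 and 147 CPM in SUC2, and 109.5, 168 and 159.8 CPM in SUC3. Every SUC3 library lay below every control library, with replicate 1 far below, and the log2 fold change was -0.36 ± 0.21 (edgeR adjusted p = 0.504), or -0.19 without SUC3 replicate 1.

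Among the 11 non-ATPases, which dock ubiquitin and hold the particle together, estimates against control ran from -0.37 to 0.05 in SUC1, from -0.23 to 0.36 in SUC2 and from -0.32 to -0.05 in SUC3. PSMD6, a lid subunit, had the smallest joint p and was at 124, 128 and 105 CPM in control, 85.4, 108.5 and 83.3 CPM in SUC1, 106, 129 and 93.97 CPM in SUC2, and 80.1, 114 and 98.5 CPM in SUC3. All succinate diets overlapped control, and the SUC1 log2 fold change was -0.37 ± 0.19 (95% interval -0.77 to 0.04, edgeR adjusted p = 0.699). PSMD4, the ubiquitin receptor, was at 194, 255 and 215 CPM in control, 187, 215 and 208 CPM in SUC1, 219, 265 and 166 CPM in SUC2, and 153, 227 and 182 CPM in SUC3. It overlapped control in every diet, with estimates of -0.12, -0.03 and -0.24 (SE 0.21 each). PSMD11 and PSMD12, the scaffold subunits of the lid, had the highest SUC2 estimates of the role, 0.32 and 0.36 (edgeR adjusted p = 0.482 and 0.534), or 0.30 and 0.13 without SUC2 replicate 2.

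The assembly chaperones did not follow 1 pattern. PSMD5, which holds an ATPase module until the base is complete, was at 29.9, 25.97 and 19.4 CPM in control, 19.3, 25.5 and 19.5 CPM in SUC1, 17.9, 25.5 and 18.1 CPM in SUC2, and 34.2, 26.2 and 28.6 CPM in SUC3. SUC3 lay above SUC2 and above SUC1 in every library but overlapped control. The log2 fold change was 0.53 ± 0.21 in SUC3 against SUC2 (edgeR adjusted p = 0.362) and 0.24 ± 0.21 in SUC3 against control (adjusted p = 0.672), or 0.61 and 0.13 without SUC2 replicate 2 and SUC3 replicate 1. PSMD5 was the 1 member with every SUC3 library above every SUC2 library, as had 7% of all genes. The other base chaperones, PSMD9 and PSMD10, were at -0.12 and 0.08 in SUC3 against control. PSMG4, which pairs with PSMG3 to assemble the alpha ring, was at 16.8, 9.26 and 7.51 CPM in control, 7.15, 9.41 and 8.26 CPM in SUC1, 7.90, 11.5 and 7.83 CPM in SUC2, and 8.87, 5.38 and 11.7 CPM in SUC3. Control replicate 1 stood above all others, and the SUC1 estimate of -0.43 ± 0.33 became -0.02 without it. PSMG1, PSMG2 and PSMG3 were between -0.22 and 0.13 in all 3 comparisons.

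The activators open the core gate without ubiquitin. PSME1 and PSME2, the interferon-induced pair that forms the 11S ring, lie 4976 bases apart on chromosome 7. PSME1 was at 29.7, 21.8 and 30.7 CPM in control, 23.9, 31.2 and 36.2 CPM in SUC1, 22.7, 29.4 and 27.3 CPM in SUC2, and 25.9, 22.1 and 32.6 CPM in SUC3. PSME2 was at 16.2, 11.9 and 14.3 CPM in control, 11.5, 11.6 and 18.0 CPM in SUC1, 13.8, 13.5 and 13.2 CPM in SUC2, and 14.96, 9.80 and 15.2 CPM in SUC3. Neither had a diet apart from control, with estimates of 0.15, -0.05 and -0.03 (SE 0.21) for PSME1 and of -0.04, -0.07 and -0.08 (SE 0.23) for PSME2. The sign of the SUC3 estimate was not stable for either gene: it was above 0 in 6 of 22 alternatives for PSME1 and in 2 of 22 for PSME2, and at its highest, without SUC3 replicate 2, it was 0.09 for both.

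PSME3, the nuclear activator of the same family, was at 33.5, 38.4 and 28.8 CPM in control, 34.7, 31.6 and 29.6 CPM in SUC1, 31.7, 35.3 and 31.0 CPM in SUC2, and 24.4, 29.1 and 28.0 CPM in SUC3. SUC3 lay below SUC1 and below SUC2 in every library, and the SUC3 estimate against control was -0.31 ± 0.16 (edgeR adjusted p = 0.450). PSME4, an activator that works without ATP, was at 182, 416 and 277 CPM in control, 200.2, 175 and 152 CPM in SUC1, 195, 255 and 199 CPM in SUC2, and 123, 290.3 and 152 CPM in SUC3. Control replicate 2 stood above all others, and the diets overlapped. The log2 fold changes were -0.73 ± 0.33 in SUC1 (unadjusted p = 0.0443, edgeR adjusted p = 0.637), -0.43 ± 0.33 in SUC2 and -0.63 ± 0.33 in SUC3, and without control replicate 2 they were -0.38, -0.08 and -0.28. PSMF1, which binds the core as an inhibitor, was at 49.2, 48.1 and 35.8 CPM in control, 38.8, 38.1 and 41.0 CPM in SUC1, 42.2, 40.9 and 34.6 CPM in SUC2, and 40.3, 37.4 and 40.9 CPM in SUC3. It was among the steadiest genes, with estimates of -0.18, -0.18 and -0.17 (SE 0.16 each). PSME3IP1 was at 24.7, 24.8 and 26.5 CPM in control, 20.5, 24.1 and 21.6 CPM in SUC1, 20.8, 31.03 and 19.4 CPM in SUC2, and 16.99, 25.3 and 21.8 CPM in SUC3. Its SUC1 libraries lay below all control libraries, and the SUC1 estimate was -0.20 ± 0.20 (edgeR adjusted p = 0.908).

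Between the succinate diets 0 of 47 members passed in SUC2 against SUC1 (0% of all genes), in SUC3 against SUC1 (0%) and in SUC3 against SUC2 (0.015%). DESeq2 likewise called 0 members, beside 0.577%, 0.574% and 1.83% of all genes. At an unadjusted p under 0.05 stood 1, 2 and 1 members, against 8.57%, 7.31% and 11.5% of all genes. In SUC2 against SUC1, 40 of 47 estimates were above 0 with a median of 0.15, and without SUC2 replicate 2 only 22 were (median -0.01). In SUC3 against SUC1, 14 were above 0 with a median of -0.05, and without SUC3 replicate 1 there were 32 (median 0.09). In SUC3 against SUC2, 4 of 47 were above 0 with a median of -0.23. Without SUC2 replicate 2 there were 16 (median -0.07), without SUC3 replicate 1 there were 10 (median -0.08), and without both the direction turned, with 35 of 47 above 0 and a median of 0.08. PSMB6 was the lowest estimate in SUC3 against SUC1, -0.58 ± 0.23 (edgeR adjusted p = 0.586), or -0.44 without SUC3 replicate 1. Members without overlap were 4 higher in SUC2 than in SUC1 (PSMC4, PSMD3, PSMD11 and PSMD12; 7.23% of all genes) and 0 lower (6.43%). In SUC3 against SUC1, PSMD5 was higher throughout (1 of 47, against 5.97% of all genes) and PSMB6, PSMC2, PSMD13 and PSME3 lower (4 of 47, against 6.06%). In SUC3 against SUC2, PSME3 was lower throughout (1 of 47, against 7.46%).

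Genes that work with the proteasome were counted in the same fit. Of 11 tested partners outside the PSM symbols, which include the ubiquitin receptor ADRM1, the maturation factor POMP and the deubiquitinase USP14, 0 were called, and the SUC1, SUC2 and SUC3 medians against control were -0.07, -0.02 and -0.13. AKIRIN2, which carries proteasomes into the nucleus, came nearest, at 31.6 ± 9.82 CPM in SUC2 and 17.6 ± 2.75 CPM in control (SD, n = 3 each; log2 fold change 0.85 ± 0.23, edgeR adjusted p = 0.077). PAAF1, a base assembly factor, was at -0.59 ± 0.24 in SUC2 (adjusted p = 0.211), and UCHL5, a deubiquitinase of the regulatory particle, at -0.28 ± 0.15 in SUC3 (adjusted p = 0.483). The transcription factor NFE2L1 (also named NRF1) induces proteasome subunits when proteasome activity falls. Of 10 genes in its pathway 0 were called, and NFE2L1 itself was at 870.5 ± 183 CPM in SUC3 and 995 ± 147 CPM in control. Its partner MAFF was at 1.87 ± 0.64 in SUC3 (adjusted p = 0.266), with 59.0 ± 67.7 CPM in SUC3 and 16.2 ± 5.49 CPM in control, a spread wider than the mean. NFE2L3 and NFE2L2, relatives of NFE2L1, were at 1.32 ± 0.62 and 0.50 ± 0.23 in SUC3 (adjusted p = 0.413 and 0.404). NFE2L3 rests on few counts, at 0.489 CPM in control and 1.22 CPM in SUC3. NFE2L2 was at 115 ± 44.9 CPM in SUC3 and 81.3 ± 13.9 CPM in control (SD).

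Upstream of the proteasome, 0 of 16 tested genes for ubiquitin, its shuttles and the p97 unfoldase were called. The shuttle genes UBQLN4 and UBQLN1 were at 0.20 ± 0.18 and 0.30 ± 0.19 in SUC2. Of 17 muscle ubiquitin ligases 0 were called. TRIM63 (MuRF1), which tags myofibrillar proteins, was at 1398 ± 182 CPM in SUC2 and 404 ± 86.0 CPM in control (1.79 ± 0.53, adjusted p = 0.102). TRIM54, its relative, was at 1.01 ± 0.30 (adjusted p = 0.101) and NEDD4, a ligase of the HECT family, at -1.11 ± 0.29 (adjusted p = 0.0729) in SUC2. The estimates in SUC1 and SUC3 had the same signs, 1.43 and 1.29 for TRIM63, 0.66 and 0.93 for TRIM54, and -0.47 and -0.85 for NEDD4. Their edgeR adjusted p ran from 0.246 to 0.781. The SUC3 libraries were very unequal, with TRIM63 at 987 ± 968 CPM and TRIM54 at 436 ± 215 CPM (SD). Over all 17 ligases the medians in SUC1, SUC2 and SUC3 were 0.07, 0.04 and -0.05. Among 20 tested heat shock and chaperone genes, 3 rose in SUC2 by edgeR, beside 1.43% of all genes tested, namely the ER chaperone HSPA5, the cochaperone BAG2 and the HSP40 gene DNAJA1 (adjusted p = 0.0213, 0.0265 and 0.0423), and 0 were called in SUC1 or SUC3. In the same comparison of SUC2 with control the 6 proteasome ATPases had a median of 0.05 and the 11 non-ATPases a median of 0.08, with 0 called.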

How the data were processed

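RNA from 12 muscle libraries was analysed. As deposited by the authors, the table holds whole-number read counts per gene. The FPKM values that the authors deposited beside them were recomputed from counts, gene lengths and column totals (largest relative difference 3.63e-14), and were used for levels between genes and for alternative fits. The aligner, the counter and its strand setting are not named in the sources used here. The submitters' processing notes name the mouse builds GRCm38 and mm10, while chromosomes and descriptions are those of sheep, so coordinates are printed as the table gives them, without a build. Of the 49 members, all matched a gene of the ARS-UI_Ramb_v3.0 reference table and 26 had identical coordinates there. All per-sample columns were used.

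Genes were filtered with filterByExpr, counts scaled by TMM (factors 0.857 to 1.10) and 1 quasi-likelihood model with diet as the only factor fitted to all 12 libraries (edgeR 4.0.16, R 4.3.3; 8 residual degrees of freedom; biological coefficient of variation 0.279). Every adjusted p is two-sided edgeR with Benjamini-Hochberg adjustment over 13319 genes and a threshold of 0.05, unless DESeq2 (1.42.0) is named. An SE is the size of the log2 fold change divided by the root of its F statistic. Deviations use log2(CPM + 0.5). The alternatives were DESeq2, RLE factors, library totals, no filter, a mean of at least 5 CPM, pairwise fits, a replicate block, limma-trend (3.58.1) on log2 of FPKM plus 1 or 0.1, and each library left out. The members, lists and tests were chosen with earlier results of these data known. Named genes were those past the threshold, the smallest joint p of each role, the catalytic subunits, the activators and inhibitor, and the highest and lowest gene. In each list up to 3 genes by smallest joint p and those past the threshold were named; other genes named for overlap or level, cell markers included, were chosen after their values were seen. One gene that this rule names is not reported here. No pair of replicates was identical (chi-square per degree of freedom 34.1 to 99.5). The pipeline was checked on simulated counts.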

Additional observations from a re-analysis of the deposited data

How the results depend on the processing

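Over 22 alternatives no proteasome gene was called in any of the 8 comparisons. The medians of the 3 comparisons with control moved by less than the spread of library medians (0.194 on the log2 scale). That spread is larger than the medians themselves (-0.12, 0.02 and -0.17 in SUC1, SUC2 and SUC3), so this cannot show that a median kept its sign. Each of the 18 genes described by library was also followed in the comparison with control where its p was smallest, and the direction turned for PSME2 alone. Its SUC3 estimate, -0.08, was 0.023 without control replicate 1 and 0.093 without SUC3 replicate 2, and ran from -0.20 to 0.093 when single libraries were left out. The cause was not tested. The SUC2 median, 0.02, ran from -0.13 to 0.14 when single libraries were left out. Without SUC2 replicate 2 and SUC3 replicate 1 together, an alternative added after the data were seen, the SUC2 and SUC3 medians were -0.13 and -0.06, and the median of SUC3 against SUC2, -0.23, turned to 0.08. The labels do not say whether the replicate numbers pair the libraries. Same-numbered libraries correlated above 0.1 in 5 of 18 pairs, and 5 of 12 libraries correlated best with their own number. Correlations ran from -0.207 to 0.216 in same-numbered pairs and from -0.287 to 0.271 in the others. These ranges overlap, so the correlations cannot decide whether the numbers are pairs. With the replicate block 0 members were called, and the medians were -0.11, 0.01 and -0.18 in SUC1, SUC2 and SUC3. PSMB9 fell below the filter of 5 CPM, where 46 members were tested.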
